A study of Danio rerio with 12 samples.

Results

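Gill metaphocytes were compared with gill macrophages, that is, GFP-labelled with DsRedx-labelled cells sorted from the gill of adult zebrafish. All libraries came from fish carrying a sox17:CreERT2 transgene together with the reporter transgene mpeg1:loxP-DsRedx-loxP-GFP, so both groups carry both. The mpeg1 promoter, active in macrophages, drives DsRedx until Cre, expressed from the promoter of the endoderm factor gene sox17 and activated by a tamoxifen-type drug, removes the DsRedx cassette and leaves GFP. GFP is thus the mark of an mpeg1-positive cell whose ancestor, or which itself, expressed sox17, and a cell of that lineage in which recombination failed would still carry DsRedx. The series calls the GFP cells metaphocytes and the DsRedx cells macrophages. Drug dose, treatment time and the number of fish were not given in the sources used here. Members were the 3 gill GFP and 3 gill DsRedx libraries, 6 of the 12 libraries of the series, chosen by their labels. Each library was made by SMART-seq2, a full-length cDNA amplification, from 30 to 50 sorted cells. Nothing in the labels says that replicates came from different fish, so p-values measure the spread between these samples, which may be technical. In such bulk samples, fewer cells of a type and less RNA per cell cannot be told apart.

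Metaphocytes are macrophage-like cells of zebrafish barrier tissues that share shape and some myeloid genes with macrophages but descend from epithelium rather than from blood-forming cells. Macrophages are known for engulfing particles and dying cells, for scavenger and complement proteins, and for inflammatory cytokines. Gill metaphocytes lie in the epithelium that covers the gill, and in background knowledge of these cells they take up soluble material and engulf particles poorly.

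The gill libraries held 5895669 to 8502294 counts and 9506 to 11881 genes with a count. Levels are given in CPM, each library's counts divided by its size on a common scale, after adjusting the sizes by TMM, a scaling that balances libraries by their shared genes. Replicates resembled each other loosely, with correlations of log2(CPM + 1) of 0.566 to 0.636 among GFP and 0.491 to 0.519 among DsRedx libraries, against 0.309 to 0.382 between the colors. Principal component 1, with 38.2% of the variance, separated the colors, and component 2, with 21.6%, set DsRedx 2 (139.9) apart from DsRedx 1 (-69.9) and DsRedx 3 (-95.3). The lineage driver could not check the labels. SOX17 had 1 count in GFP 1 and 0 counts in the other gill libraries, which does not bear on an ancestor's expression. MPEG1 (ENSDARG00000055290), the perforin-like gene of the reporter's family, stood at 255, 478 and 328 CPM in GFP 1 to 3 and at 529, 1440 and 2655 CPM in DsRedx 1 to 3. It was present in every library and did not pass the test (log2 fold change -2.12 with SE 0.66 and adjusted p = 0.0863).

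Markers of other cell types were set beside the groups. The 27 genes of the macrophage and leukocyte list summed to 6210 to 7790 CPM in GFP and 7870 to 17100 CPM in DsRedx libraries. The 45 genes of the tight junction and adhesion list summed to 12800 to 17400 CPM in GFP and 460 to 1290 CPM in DsRedx libraries. The colony-stimulating factor receptor genes that define macrophages were low even in the DsRedx cells, csf1ra at a mean of 4.42 CPM and csf1rb at 3.18 CPM. Neither receptor gene passed the filter on counts used below. Of 21 tested genes of the macrophage list, 8 fell in GFP cells and 0 rose (38.1% called, against 3.81% of all genes), and 13 were not called. The falls included ptprc, SPI1, marco, c1qb and c1qc, given below, while the complement gene c1qa did not pass (adjusted p = 0.117). The 4 with positive log2 fold changes were PTPN6 (2.09), CORO1A (1.32), spi1a (0.8) and laptm5 (0.36), none of them called. The 15 erythrocyte and thrombocyte markers summed to 0 to 0.281 CPM and the 19 endothelial and pillar cell markers to at most 10 CPM, with kdrl and cdh5 at 0 counts. T and NK cell markers summed to 238 to 252 CPM in GFP and 1510 to 2770 CPM in DsRedx libraries, with most of the latter from RUNX3, which macrophages can also express, while 14 of 22 in GFP and 16 of 22 in DsRedx were at 0 in every library, ZAP70 and il7r among them. Others were not, with lck at 0.547, 38 and 186 CPM in DsRedx 1 to 3, cd8a at 56.8 CPM in DsRedx 3 and cd4-2.2 at 10.24 and 10.19 CPM in GFP 1 and GFP 2 and 9.67 CPM in DsRedx 3. B cell markers summed to 42.2 to 396 CPM in GFP and 194 to 645 CPM in DsRedx libraries, with PAX5 at 0 counts, cd22 at 26.2, 0.533 and 96.6 CPM in DsRedx 1 to 3 and ighm at 27.9 CPM in DsRedx 1. Neutrophil markers summed to 269 to 328 CPM in GFP and 186 to 844 CPM in DsRedx libraries, with lyz and mmp13a at 0 counts. Of these 15 markers, 6 were at 0 in every GFP library and 4 in every DsRedx library. Others were read, with MMP9 at 69.3 CPM in GFP 1 and 65.6 and 217 CPM in DsRedx 2 and DsRedx 3. LECT2 (ENSDARG00000033227) stood at 68.15 and 98.7 CPM in DsRedx 1 and DsRedx 3, and CSF3R at 55.1 CPM in DsRedx 3. Fibroblast, cartilage and smooth muscle markers summed to 71 to 94.6 CPM in GFP and 12.2 to 569 CPM in DsRedx libraries, high in DsRedx 2 and DsRedx 3, with col1a1a and PDGFRA at 0 counts. Of these markers, SOX9 (ENSDARG00000003293) stood at 414.9 CPM in DsRedx 2, and COL1A2 and COL9A1 at 144.8 and 75.5 CPM in DsRedx 3. Ionocyte markers summed to 408 to 792 CPM in GFP and 707 to 1310 CPM in DsRedx libraries, with foxi3b and CFTR at 0 counts. Of these 28 markers, 10 were at 0 in every GFP library and 18 in every DsRedx library. Others were read, with foxi3a at 29.3 CPM in GFP 3, atp1a1a.2 at 30.6 CPM in GFP 2 and slc9a3.2 at 24.45 CPM in GFP 1. The marker ca2 stood at 55.9, 232 and 3.32 CPM in DsRedx 1 to 3. Gill surface markers summed to 3030 to 4760 CPM in GFP and 739 to 5580 CPM in DsRedx libraries. In DsRedx 2, the keratin genes krt8 and krt18b alone stood at 2103 and 3001 CPM. Another keratin gene, krt5, stood at 159.6, 1.8 and 51.4 CPM in GFP and 2.19, 1.78 and 0.967 CPM in DsRedx libraries. Of these 34 markers, 13 were at 0 in every GFP library and 18 in every DsRedx library, with cyt1 and AGR2 at 0 in both groups. The part of these cells in the differences below was not tested.

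Of 32520 genes in the table, 6160 had 10 or more counts in 3 or more of the 6 gill libraries and were tested with edgeR's quasi-likelihood F test, with Benjamini-Hochberg adjustment over all 6160. A gene with under 10 counts in every library of 1 color passed this filter through the other color alone, which set its sign beforehand. Genes of this kind below include the rises of PAX1, SOX7, hsh2d, tnfrsf11a, spint1b, npsn, ACLY, rab11fip1b, tmem154 and ushbp1. Among falls they include srgn, NRP2 (ENSDARG00000038446), sema4ab and MPEG1 (ENSDARG00000043093). Genes of this kind that were not called include PAX9, ALOX5 (ENSDARG00000057273), cdkn1a, CCND1 and RHOG (ENSDARG00000068653), all higher in GFP. At an adjusted p under 0.05, 122 genes rose in GFP cells and 113 fell, 235 in all and 3.81% of those tested (1.98% higher, 1.83% lower). The balance of directions depended on scaling, with 78 higher and 152 lower under RLE size factors and 171 higher and 95 lower under upper-quartile factors. The median log2 fold change of all tested genes was -0.182 with TMM, -0.614 with RLE and 0.105 with upper-quartile scaling, and list medians below are to be read against it. Leaving out 1 library left 62 to 251 calls, the fewest without GFP 2 (62), GFP 1 (69), GFP 3 (93) or DsRedx 3 (126), and 49 of the 235 genes were called in all 6 such fits. All adjusted p-values below are from this edgeR test unless another tool is named. An SE, in text or figures, is the size of the log2 fold change divided by the square root of that test's F statistic. DESeq2 on the same genes called 655 higher (10.6%) and 538 lower (8.73%), shares against which its list counts are to be read. A call below is kept in all 6 fits where it passed with each library left out in turn, and otherwise the libraries whose omission ended it are named.

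Nearly every called gene left a trace in the group where it was low. For the 122 rises, the DsRedx mean was a median of 1.02% of the GFP mean (quartiles 0.791 and 1.32%), and all 122 had a count in every DsRedx library. For the 113 falls, the GFP mean was a median of 0.52% of the DsRedx mean (quartiles 0.392 and 1.89%), and 112 had a count in every GFP library. Large folds in this comparison thus sit on a similar low level, and the source of that level was not tested. When 2% of each gene's gill mean was taken off every library, 80 rises and 41 falls were called. Of the 108 named genes called, 40 lost the call in this way, and MDFIC and itgae.1 no longer passed the filter on counts. Such a loss is written below as lost with 2% removed, with its adjusted p. A lost call does not by itself mean a smaller fold. The log2 fold change went from 5.51 to 7.15 for grna.2 and from 5.73 to 7.32 for MYH9 (ENSDARG00000063295), which both lost the call. For RUNX3 and NR4A3, which lost it too, the change became smaller, from -4.47 to -4.3 and from -2.42 to -2.17.

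**Figure D1:**
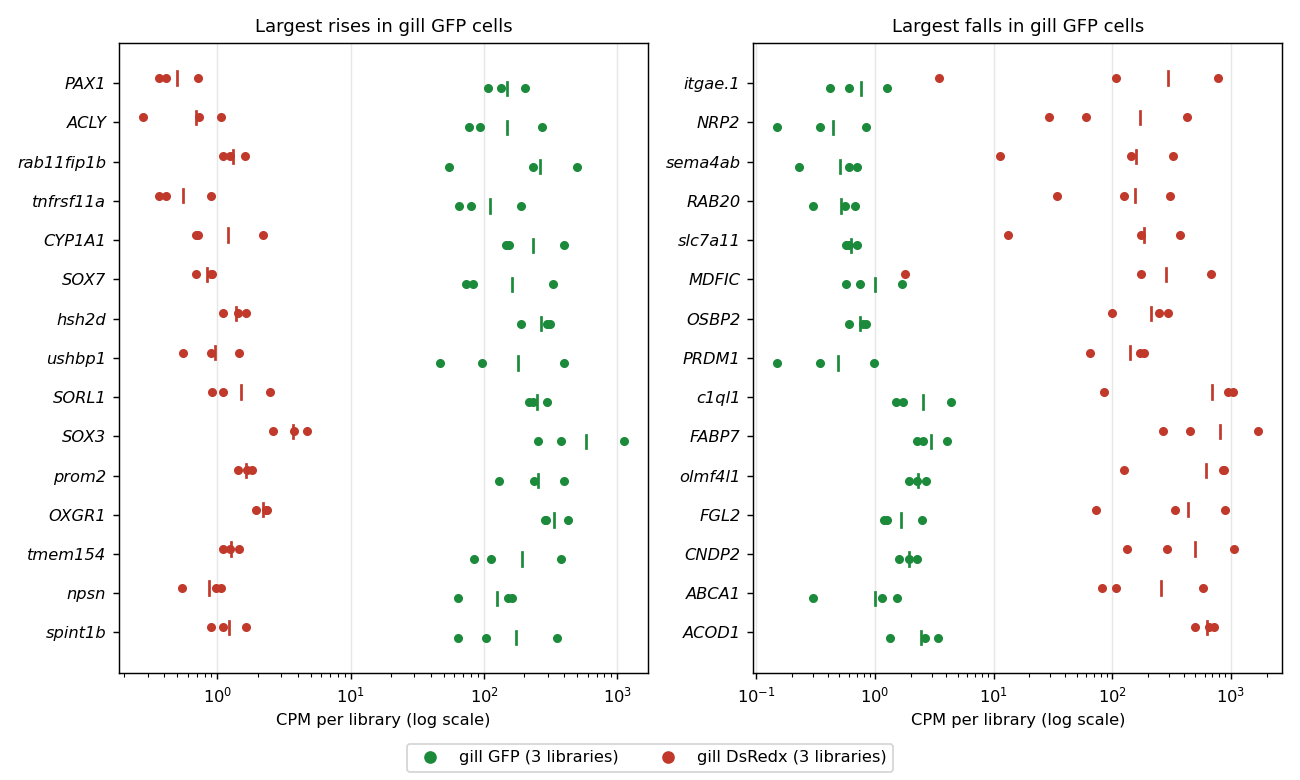
CPM level of each gene in each gill library (x axis, log scale) for the 15 largest rises (left) and the 15 largest falls (right) outside the macrophage identity and adhesion lists, with green points for 3 GFP and red points for 3 DsRedx libraries and vertical bars for group means. The groups do not overlap for any gene shown, by the rule that chose them; OXGR1 lies at 294, 288 and 429.5 CPM in GFP and at 2.37, 2.31 and 1.94 CPM in DsRedx libraries, and itgae.1 and MDFIC spread widely among DsRedx libraries.

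Across 29 gene programs, the calls differed in number and direction. Phagocytosis, lymphoid and myeloid transcription factors, and cytokines and chemokines held falls only, while epithelial transcription factors and proteases held rises only. The immunoreceptor, leukocyte motility, growth factor, endocytosis, solute transport and tetraspanin lists held both. Oxidative phosphorylation, cell cycle, ribosomal and mitochondrial lists held 0 calls by edgeR, and the remaining lists held 1 to 3 each. Among the latter, complement and secreted immune proteins held 2 falls and 0 rises of 5 tested (40% called, against 3.81% of all genes). Lists share members, and the 8 falls of the macrophage and leukocyte list are also counted among falls of program lists. They are ptprc and fcer1g (immunoreceptor), SPI1 and RUNX3 (transcription factors), and marco, c1qb, c1qc and MPEG1 (ENSDARG00000043093) (phagocytosis). These lists were written with earlier results of these data known, so their counts describe them and are not independent evidence of direction.

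**Figure D2:**
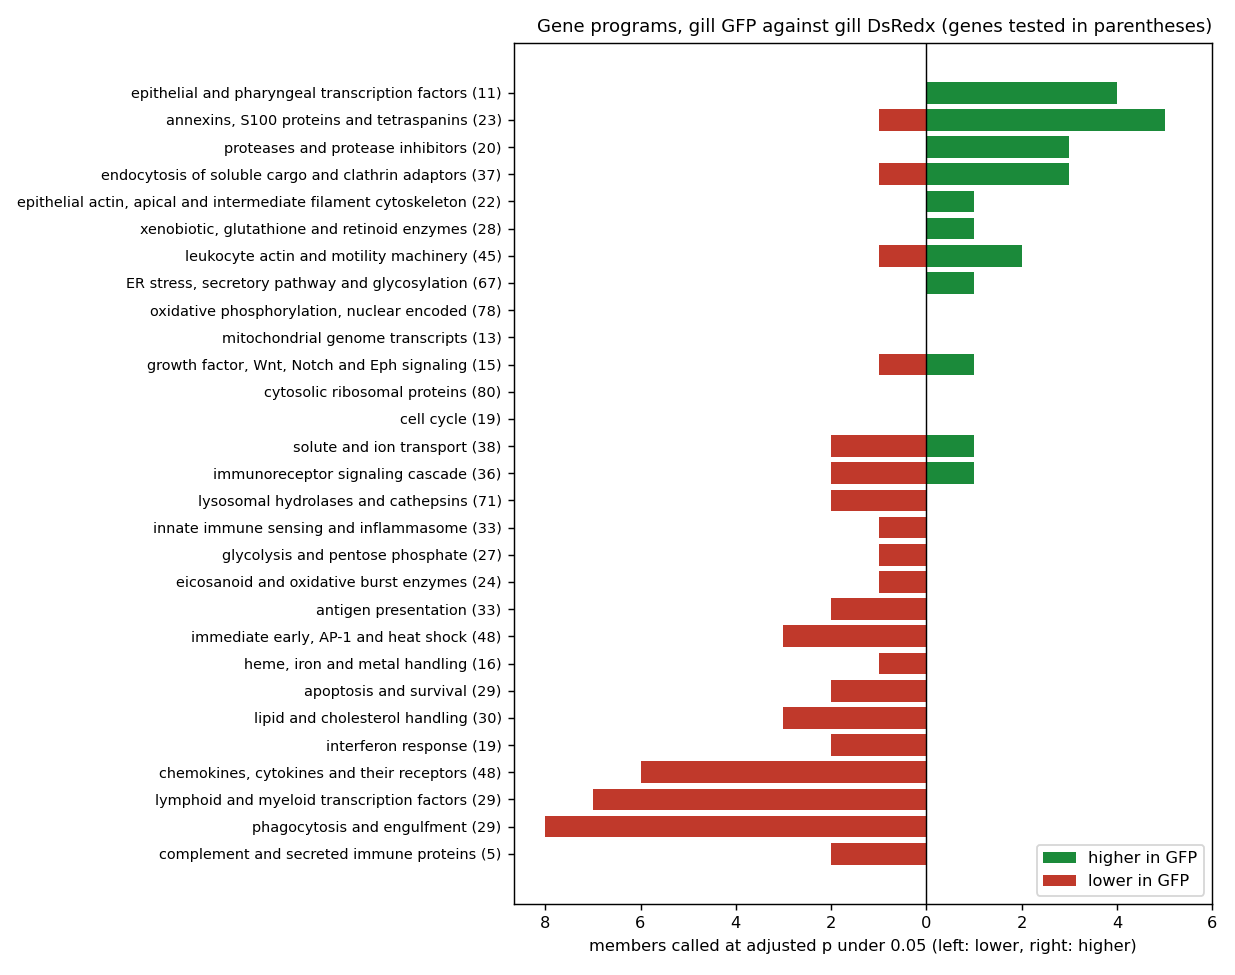
Number of genes called higher (green, right) and lower (red, left) in gill GFP cells for each of 29 gene programs (y axis, tested genes in parentheses; x axis, number of genes). Phagocytosis holds 8 falls and 0 rises of 29 tested (27.6% called), and annexins, S100 proteins and tetraspanins hold 5 rises and 1 fall of 23 (26.1%). Of all genes tested, 3.81% were called.

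Transcription factors of epithelium and pharynx were called only as rises. Of 58 genes in that list, 33 had a count in a gill library and 11 passed the filter. Of 11 tested, 4 rose and 0 fell by edgeR (36.4% called, against 3.81% of all genes). All 11 had positive log2 fold changes (median 6.93), 9 had an unadjusted p under 0.05 and DESeq2 called 9 higher. PAX1 and PAX9, given below, passed the filter through GFP libraries alone, which set their sign beforehand. The shared direction of the list is therefore not evidence in itself. SOX3, a SOXB1 factor known from neural and placodal progenitors, stood at 253, 378 and 1125 CPM in GFP 1 to 3 and at 4.74, 3.73 and 2.63 CPM in DsRedx 1 to 3. All GFP libraries lay far above all DsRedx libraries, GFP 3 highest (log2 fold change 7.3 with SE 1.06 and adjusted p = 0.00184), and the call was kept in all 6 fits. PROX1, a homeodomain factor known from liver and lymphatic endothelium, stood at 356, 384 and 186 CPM in GFP and 2.55, 3.2 and 2.35 CPM in DsRedx libraries. Its groups did not overlap (log2 fold change 6.83 with SE 1.18 and adjusted p = 0.00532), and the call was lost without GFP 1 or GFP 2 at adjusted p 0.0662 to 0.0794. TFAP2C, an AP-2 factor of surface ectoderm, stood at 273, 269 and 163 CPM against 2.92, 2.13 and 0.691 CPM. Its GFP values all exceeded its DsRedx values (log2 fold change 6.93 with SE 1.38 and adjusted p = 0.0132), with the call lost without any GFP library at adjusted p 0.0563 to 0.113. PAX1 (ENSDARG00000073814), a paired-box factor of the pharyngeal pouches, stood at 134, 108 and 203 CPM against 0.364, 0.711 and 0.415 CPM. It had the largest fitted rise among the 15 shown in the plot of largest changes (log2 fold change 8.17 with SE 1.72 and adjusted p = 0.0175), and the call was lost without any GFP library or DsRedx 3 at adjusted p 0.0515 to 0.12. Its relative PAX9 was higher in every GFP library (49.7, 49.3 and 140.3 against 0.729, 0.888 and 0.138 CPM) but did not pass the test (log2 fold change 7.06 with SE 2.1 and adjusted p = 0.0779). ELF3, a factor of epithelial differentiation, also missed it, with a log2 fold change of 5.51 (adjusted p = 0.0779). PAX9, ELF3 and the genes below so marked were picked after their values were seen.

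Outside that list, further regulators rose. SOX7, a SOXF factor of the same subgroup as sox17, stood at 73.1, 82.5 and 327 CPM in GFP and 0.911, 0.888 and 0.691 CPM in DsRedx libraries. The GFP libraries differed among themselves, GFP 3 being highest, yet all lay above DsRedx (log2 fold change 7.57 with SE 1.68 and adjusted p = 0.0227), and the call was lost without any GFP library or DsRedx 3 at adjusted p 0.0636 to 0.195. GATA3, known in T helper cells and in stratified epithelium, rose (log2 fold change 7.08 with SE 1.66 and adjusted p = 0.0303) from 0.729, 1.07 and 1.38 CPM in DsRedx to 145, 65.2 and 229 CPM in GFP and its call was lost without any GFP library, DsRedx 1 or DsRedx 3 at adjusted p 0.056 to 0.177. The part of T cells in this rise was not tested. The tuft cell factor pou2f3 stood at 132, 115 and 266 CPM in GFP and 1.46, 2.13 and 0.967 CPM in DsRedx libraries. It rose (log2 fold change 6.8 with SE 1.53 and adjusted p = 0.0253), with the call lost without any GFP library or DsRedx 3 at adjusted p 0.0671 to 0.171. The 3 other tested markers of tuft, neuroepithelial and chemosensory cells did not pass the test. GFI1B and ALOX5 (ENSDARG00000057273) were higher in every GFP library, with log2 fold changes of 6.25 and 6.71 (adjusted p = 0.0879 and 0.115). TRPM5, a channel of tuft cells, had a log2 fold change of -0.99 (adjusted p = 0.85). Of the 25 markers in the list, 17 were at 0 in all GFP libraries and 17 in all DsRedx libraries. That marker list summed to 209 to 560 CPM in GFP and 4.28 to 160 CPM in DsRedx libraries, and its part in the rise of pou2f3 was not tested. The transcriptional coactivator eya2, of the pharyngeal and placodal gene network and picked after its values were seen, rose as well (log2 fold change 6.06, adjusted p = 0.0269; call lost without any GFP library, DsRedx 1 or DsRedx 3 at adjusted p 0.0503 to 0.175, and with 2% removed at 0.0837).

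Factors of the blood lineages mostly went the other way. Of 29 tested, 0 rose and 7 fell (24.1% called, against 3.81% of all genes), the median log2 fold change was -2.23, and DESeq2 called 2 higher and 12 lower. SPI1, encoding PU.1, a master regulator of myeloid cells, stood at 2.39, 1.5 and 2.39 CPM in GFP 1 to 3 and 100.4, 1075 and 478 CPM in DsRedx 1 to 3. DsRedx 1 was the lowest of its group and still lay above every GFP library (log2 fold change -8.03 with SE 1.2 and adjusted p = 0.00215), and the call was kept in all 6 fits. CEBPB, a factor of macrophage activation, was present in both groups, at 664, 378 and 309 CPM in GFP and 3131, 3445 and 5029 CPM in DsRedx libraries. Its fall was partial and the groups did not overlap (log2 fold change -3.1 with SE 0.52 and adjusted p = 0.00474), and the call was kept in all 6 fits. ID2, an inhibitor of helix-loop-helix factors, stood at 20.8, 31.6 and 5.75 CPM against 1507, 895 and 682 CPM. It fell (log2 fold change -5.73 with SE 0.88 and adjusted p = 0.00236), with the call kept in all 6 fits but lost with 2% removed at 0.091. RUNX3 fell by 4.47 on the log2 scale (adjusted p = 0.00967), with the call lost without GFP 1 at adjusted p 0.0721, and with 2% removed at 0.18. The repressor PRDM1 and the orphan receptor NR4A3 also fell, with log2 fold changes of -8.11 and -2.42 (adjusted p = 0.0253 and 0.0372). The call of PRDM1 was lost without any GFP library or DsRedx 3 at adjusted p 0.0624 to 0.148, and with 2% removed at 0.0631 and that of NR4A3 lost without any GFP library, DsRedx 1 or DsRedx 3 at adjusted p 0.0645 to 0.168, and with 2% removed at 0.132.

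A second PU.1-type gene behaved differently from SPI1. The paralog spi1a, picked after its values were seen, stood at 1678, 1559 and 1718 CPM in GFP and 449, 1312 and 1076 CPM in DsRedx libraries. All 3 GFP values exceeded all 3 DsRedx values, but the difference did not pass the test (log2 fold change 0.8 with SE 0.54 and adjusted p = 0.483). SPIC, a related factor known from iron-recycling macrophages and picked in the same way, stood at 1357, 819 and 618 CPM in GFP and 8.2, 169 and 7.88 CPM in DsRedx libraries. DsRedx 2 held nearly all of the DsRedx signal, and the difference missed the threshold (log2 fold change 3.91 with SE 1.13 and adjusted p = 0.0708). The interferon regulatory factor IRF8, known for macrophage development, had a log2 fold change of -4.95 without passing it (adjusted p = 0.0872).

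**Figure D3:**
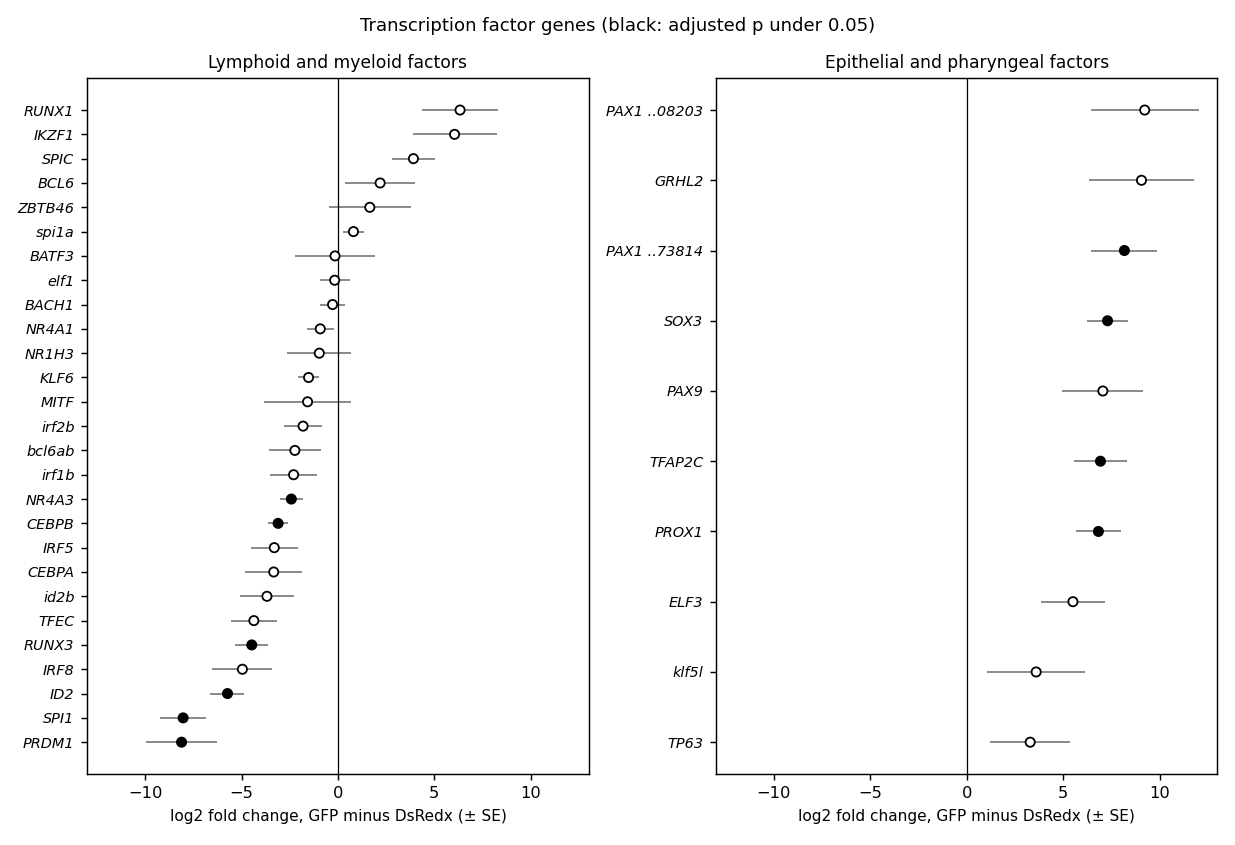
Log2 fold change, GFP minus DsRedx, with its standard error (x axis) for 27 of the 29 tested lymphoid and myeloid factors (left) and 10 of the 11 tested epithelial and pharyngeal factors (right); black points have an adjusted p under 0.05, and 2 genes that share a symbol carry the end of their identifier. SPI1 lies at -8.03 and spi1a at 0.80, and all 10 epithelial and pharyngeal factors shown lie right of 0.

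4 receptor genes were followed singly, outside any list, 3 of them picked after their values were seen. OXGR1 (ENSDARG00000033684), the receptor for the metabolite oxoglutarate, stood at 294, 288 and 429.5 CPM in GFP 1 to 3 and 2.37, 2.31 and 1.94 CPM in DsRedx 1 to 3. Its libraries agreed closely within each group (log2 fold change 7.25 with SE 1.14 and adjusted p = 0.00288), and the call was kept in all 6 fits. The lysophosphatidic acid receptor symbol LPAR6 covers 2 genes that both rose and were picked after their values were seen. LPAR6 (ENSDARG00000062552) stood at 233, 266 and 325 CPM against 4.74, 3.38 and 6.08 CPM (log2 fold change 5.85 with SE 1.17 and adjusted p = 0.0134; call lost without any GFP library at adjusted p 0.0824 to 0.11). LPAR6 (ENSDARG00000069441) stood at 162, 233 and 68.6 CPM against 1.09, 2.13 and 1.52 CPM (log2 fold change 6.6 with SE 1.59 and adjusted p = 0.0345; call lost without any GFP library, DsRedx 1 or DsRedx 3 at adjusted p 0.0639 to 0.186). Reads of such near copies may be split between them in ways that were not checked. GPR34, a lysophosphatidylserine receptor picked likewise, rose from 2, 1.96 and 1.24 CPM to 147, 160.3 and 117 CPM (log2 fold change 6.34 with SE 1.59 and adjusted p = 0.0413; call lost without any GFP library, DsRedx 1 or DsRedx 3 at adjusted p 0.0628 to 0.176, and with 2% removed at 0.0619).

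Of the 48 tested chemokine, cytokine and receptor genes, 0 rose, but single receptor and adaptor genes outside that list did. The gene tnfrsf11a encodes RANK, the receptor of osteoclast and mucosal epithelial differentiation, and stood at 189, 65.2 and 80.4 CPM in GFP and 0.364, 0.888 and 0.415 CPM in DsRedx libraries. GFP 1 was highest and the groups were apart (log2 fold change 7.61 with SE 1.89 and adjusted p = 0.0408), and the call was lost without any GFP library, DsRedx 1 or DsRedx 3 at adjusted p 0.0729 to 0.2, and with 2% removed at 0.0605. The genes ifnlr1, named for the interferon lambda receptor of mammals, and il17rel, of the interleukin 17 receptor family, rose by log2 fold changes of 6.37 and 6.93 (adjusted p = 0.0213 and 0.0311) and were picked after their values were seen. The ifnlr1 call was lost without any GFP library or DsRedx 3 at adjusted p 0.062 to 0.186, and with 2% removed at 0.0639, and the il17rel call was lost without any GFP library, DsRedx 1 or DsRedx 3 at adjusted p 0.0562 to 0.174. The SH2 adaptor gene hsh2d, known from blood cells, stood at 313, 189 and 297 CPM against 1.64, 1.42 and 1.11 CPM. Both groups were tight (log2 fold change 7.57 with SE 1.29 and adjusted p = 0.00505), with the call lost without GFP 1 at adjusted p 0.0647. Another adaptor, DAPP1, known from B cell receptor signaling, rose (log2 fold change 6.25 with SE 1.49 and adjusted p = 0.0321; call lost without any GFP library or DsRedx 3 at adjusted p 0.0794 to 0.171, and with 2% removed at 0.0619).

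Progranulin genes, which encode secreted growth factors, moved in different ways. The gene grna.2 stood at 23590, 27380 and 39950 CPM in GFP 1 to 3 and 353, 1384 and 256 CPM in DsRedx 1 to 3. Every GFP library exceeded every DsRedx library (log2 fold change 5.51 with SE 0.64 and adjusted p = 0.000693), and the call was kept in all 6 fits but lost with 2% removed at 0.17. Its relative grnas, picked after its values were seen, stood at 794, 1029 and 1382 CPM against 17.3, 45 and 14.1 CPM (log2 fold change 5.39 with SE 0.8 and adjusted p = 0.00215; call kept in all 6 fits but lost with 2% removed at 0.0609). The paralogs grna and grna.1, also picked afterwards, were lower without passing the test, at log2 fold changes of -1.26 and -3.78 (adjusted p = 0.2 and 0.0538). Of 15 tested genes of growth factor, Wnt, Notch and Eph signaling, 1 rose (grna.2) and 1 fell (13.3% called, against 3.81% of all genes). The gene that fell passed the filter on counts through DsRedx libraries alone, which set its sign beforehand. The fall was NRP2 (ENSDARG00000038446), a coreceptor of semaphorins, at 0.341, 0.15 and 0.842 CPM against 60.14, 429.7 and 29.4 CPM (log2 fold change -8.55 with SE 1.89 and adjusted p = 0.0227; call lost without any GFP library or DsRedx 2 at adjusted p 0.0966 to 0.139, and with 2% removed at 0.0644).

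Membrane genes of the annexin, S100 and tetraspanin families held more rises than falls. Of 23 tested annexins, S100 proteins and tetraspanins, 5 rose and 1 fell (26.1% called, against 3.81% of all genes). The median log2 fold change of 0.167 turned to -0.375 under RLE scaling. The tetraspanin gene cd9b stood at 916, 958 and 1854 CPM in GFP and 10.9, 22.6 and 7.74 CPM in DsRedx libraries. The groups were well apart (log2 fold change 6.5 with SE 0.82 and adjusted p = 0.000916), and the call was kept in all 6 fits. The fish S100 gene icn, of the gill and skin surface, stood at 1732, 3416 and 1261 CPM against 50.1, 178 and 175 CPM. Every GFP library was higher (log2 fold change 3.99 with SE 0.7 and adjusted p = 0.00602), with the call lost without GFP 2 at adjusted p 0.0682. The S100 genes s100v1 and s100u and the tetraspanin gene tspan34b rose by log2 fold changes of 6.71, 6.35 and 6.81 (adjusted p = 0.0044, 0.00836 and 0.0217). The s100v1 call was lost without GFP 2 at adjusted p 0.0936, that of s100u lost without GFP 1 or GFP 2 at adjusted p 0.0699 to 0.106 and that of tspan34b lost without any GFP library or DsRedx 3 at adjusted p 0.062 to 0.159. The tetraspanin gene CD81 (ENSDARG00000036080) fell (log2 fold change -6.68 with SE 1.32 and adjusted p = 0.0127; call lost without any GFP library or DsRedx 3 at adjusted p 0.0648 to 0.0903, and with 2% removed at 0.113), so that 2 related tetraspanins moved apart. The keratin genes krt8 and krt18b, picked after their values were seen, did not pass the test (adjusted p = 0.363 and 0.378), with 634, 517 and 632 CPM of krt8 in GFP and 398, 2103 and 1441 CPM in DsRedx libraries. Keratins of simple epithelium were thus read in both groups.

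Several genes of epithelial membranes were called singly, while the transport list as a whole did not rise. The gene gpa33a, encoding an immunoglobulin-family antigen of mammalian gut epithelium and picked after its values were seen, stood at 592, 350.5 and 859.8 CPM against 6.38, 4.8 and 2.49 CPM (log2 fold change 7.04 with SE 0.98 and adjusted p = 0.00161; call kept in all 6 fits). NIPAL4, a magnesium transporter of keratinocytes, stood at 836, 876 and 1191 CPM against 7.47, 8 and 5.8 CPM. It rose (log2 fold change 7.09 with SE 0.8 and adjusted p = 0.000652), and its call was kept in all 6 fits. It was the 1 rise among 38 tested solute and ion transport genes, of which 2 fell and 25 had negative log2 fold changes (median -0.493). The calls made 7.89% of that list, against 3.81% of all genes. The prominin gene prom2, of plasma membrane protrusions in epithelium, rose (log2 fold change 7.27 with SE 1.32 and adjusted p = 0.00782; call lost without GFP 1 or GFP 2 at adjusted p 0.0628 to 0.126). The phosphoinositide kinase gene pip5k1ba, picked afterwards, rose (log2 fold change 6.81 with SE 0.91 and adjusted p = 0.00116; call kept in all 6 fits). The glycosyltransferase gene galnt6, which starts mucin-type O-glycans, was the 1 gene called of 67 tested in the secretory list (log2 fold change 6.23 with SE 1.03 and adjusted p = 0.00417; call kept in all 6 fits). That share, 1.49%, was below the 3.81% of all genes.

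Genes of serine protease control were called only as rises. Of 20 tested proteases and inhibitors, 3 rose and 0 fell (15% called, against 3.81% of all genes), while 11 had negative log2 fold changes (median -0.297). The rises were the membrane protease gene st14a, encoding a matriptase, and the Kunitz inhibitor genes spint1b and spint2, whose proteins restrain matriptase. The inhibitor spint2 stood at 476, 824 and 985 CPM in GFP and 9.29, 7.64 and 7.19 CPM in DsRedx libraries. The groups did not overlap (log2 fold change 6.56 with SE 0.85 and adjusted p = 0.000916), and the call was kept in all 6 fits. The inhibitor spint1b stood at 103, 63.5 and 353 CPM against 1.64, 0.888 and 1.11 CPM (log2 fold change 7.14 with SE 1.61 and adjusted p = 0.0253), and its call was lost without any GFP library or DsRedx 3 at adjusted p 0.0671 to 0.2. The protease st14a stood at 101, 221 and 113 CPM against 0.911, 2.13 and 0.276 CPM (log2 fold change 7.02 with SE 1.72 and adjusted p = 0.0375), and its call was lost without any GFP library, DsRedx 1 or DsRedx 3 at adjusted p 0.07 to 0.186. In DsRedx 1 to 3, spint1b held 9, 5 and 8 counts and so passed the filter through GFP libraries alone. The counts of st14a there were 5, 12 and 2. The shared direction of these calls is therefore not evidence in itself. The paralog spint1a, picked after its values were seen, did not pass the test (log2 fold change -0.43, adjusted p = 0.815). The metalloprotease gene npsn, known from zebrafish neutrophils, rose (log2 fold change 7.16 with SE 1.76 and adjusted p = 0.0375; call lost without any GFP library, DsRedx 1 or DsRedx 3 at adjusted p 0.0664 to 0.171, and with 2% removed at 0.0501), while srgn, the proteoglycan gene of granules, fell (log2 fold change -7.33 with SE 1.69 and adjusted p = 0.0276; call lost without any GFP library, DsRedx 2 or DsRedx 3 at adjusted p 0.0556 to 0.155, and with 2% removed at 0.0619) and the other 4 neutrophil markers tested did not pass.

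Genes of clathrin adaptors and endosomal sorting rose in part. Of 37 tested in that list, 3 rose and 1 fell (10.8% called, against 3.81% of all genes), and the median log2 fold change of 0.203 turned to -0.251 under RLE scaling. AP1M2, the adaptor subunit of epithelial cells, stood at 208, 259.9 and 227 CPM in GFP and 1.46, 3.02 and 1.94 CPM in DsRedx libraries. Its groups were well apart (log2 fold change 6.75 with SE 1.32 and adjusted p = 0.0123), with the call lost without any GFP library at adjusted p 0.0758 to 0.111. The other rises were ap1s3b (log2 fold change 6.29 with SE 1.25 and adjusted p = 0.0132; call lost without any GFP library at adjusted p 0.0679 to 0.137) and AP2S1 (log2 fold change 6.6 with SE 1.49 and adjusted p = 0.0253; call lost without any GFP library or DsRedx 3 at adjusted p 0.0657 to 0.168). The fall was RAB20, a GTPase of macrophage phagosomes (log2 fold change -8.19 with SE 1.79 and adjusted p = 0.0217; call lost without any GFP library or DsRedx 2 at adjusted p 0.081 to 0.135, and with 2% removed at 0.0634). The sorting receptor gene SORL1 stood at 296, 217 and 232 CPM against 0.911, 2.49 and 1.11 CPM and rose (log2 fold change 7.35 with SE 1.34 and adjusted p = 0.00782), its call lost without GFP 1 or GFP 2 at adjusted p 0.0648 to 0.0824. The sorting receptor gene SORT1 (ENSDARG00000056252), picked after its values were seen, rose (log2 fold change 6.96 with SE 1.57 and adjusted p = 0.0253; call lost without any GFP library or DsRedx 3 at adjusted p 0.0625 to 0.15). The gene rab11fip1b, an effector of recycling endosomes, stood at 499, 54.5 and 233 CPM against 1.09, 1.6 and 1.24 CPM. It varied widely among GFP libraries and rose (log2 fold change 7.62 with SE 1.43 and adjusted p = 0.00923), with the call lost without GFP 1 at adjusted p 0.164.

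Leukocyte motility genes were for the most part not called. Of 45 tested, 42 were not called, 2 rose and 1 fell (6.67% called, against 3.81% of all genes), and the median log2 fold change was -0.111, or 0.259 under upper-quartile scaling. LCP1, the leukocyte actin bundler picked after its values were seen, stood at 1758, 1350 and 2243 CPM in GFP 1 to 3 and 1565, 2349 and 1590 CPM in DsRedx 1 to 3. These values overlapped (log2 fold change -0.04, SE 0.47, adjusted p = 0.982). The actin monomer binder pfn1 and the leukocyte GTPase rac2, picked likewise, had log2 fold changes of 0.64 and -0.15 (adjusted p = 0.396 and 0.957). The rises were GSN (ENSDARG00000045262), an actin-severing protein (log2 fold change 6.41 with SE 0.98 and adjusted p = 0.00226; call lost without GFP 2 at adjusted p 0.0511), and cfl1l, a cofilin (log2 fold change 6.46 with SE 1.07 and adjusted p = 0.00414; call lost without GFP 2 at adjusted p 0.0949). The fall was itgae.1, an integrin subunit gene, at 1.25, 0.599 and 0.421 CPM against 3.46, 781 and 108 CPM (log2 fold change -8.57 with SE 1.87 and adjusted p = 0.0217; call lost without any GFP library or DsRedx 2 at adjusted p 0.103 to 0.159, and the gene left the test with 2% removed).

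A nonmuscle myosin gene and an actin crosslinker gene rose. MYH9 (ENSDARG00000063295), picked after its values were seen, encodes a nonmuscle myosin heavy chain and stood at 453, 649.5 and 555 CPM in GFP and 18, 6.75 and 6.36 CPM in DsRedx libraries. It rose (log2 fold change 5.73 with SE 0.95 and adjusted p = 0.00407), and the call was kept in all 6 fits but lost with 2% removed at 0.115. Another gene of that symbol, MYH9 (ENSDARG00000001014), did not pass the test (log2 fold change 4.16 with SE 2.22 and adjusted p = 0.339). The crosslinker gene actn4 was the 1 gene called of 22 tested epithelial cytoskeleton genes (log2 fold change 6.0 with SE 1.17 and adjusted p = 0.0116; call lost without any GFP library at adjusted p 0.0668 to 0.114). That share, 4.55%, was near the 3.81% of all genes.

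Genes that carry signals from immune receptors held 3 calls. Of 36 tested, 33 were not called, the 3 calls made 8.33% against 3.81% of all genes, and the median log2 fold change was 0.794, above that of all genes. The Src-family kinase gene FGR, picked after its values were seen, stood at 578, 543 and 536 CPM in GFP and 306, 327 and 307 CPM in DsRedx libraries. All GFP values exceeded all DsRedx values without passing the test (log2 fold change 0.82 with SE 0.63 and adjusted p = 0.563). The adaptor gene lcp2a and the phosphatase gene PTPN6, picked likewise, had log2 fold changes of 1.39 and 2.09 (adjusted p = 0.381 and 0.388). In contrast, ptprc, encoding the pan-leukocyte phosphatase CD45, stood at 2.27, 1.5 and 1.82 CPM against 560.5, 459.5 and 353 CPM. It fell (log2 fold change -7.92 with SE 1.06 and adjusted p = 0.00117), with the call kept in all 6 fits. The receptor chain gene fcer1g, of Fc receptors, fell too (log2 fold change -6.2 with SE 1.35 and adjusted p = 0.0217; call lost without any GFP library or DsRedx 1 at adjusted p 0.0848 to 0.13, and with 2% removed at 0.0619). The immunoreceptor list thus held 1 rise, DAPP1, and 2 falls.

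**Figure D4:**
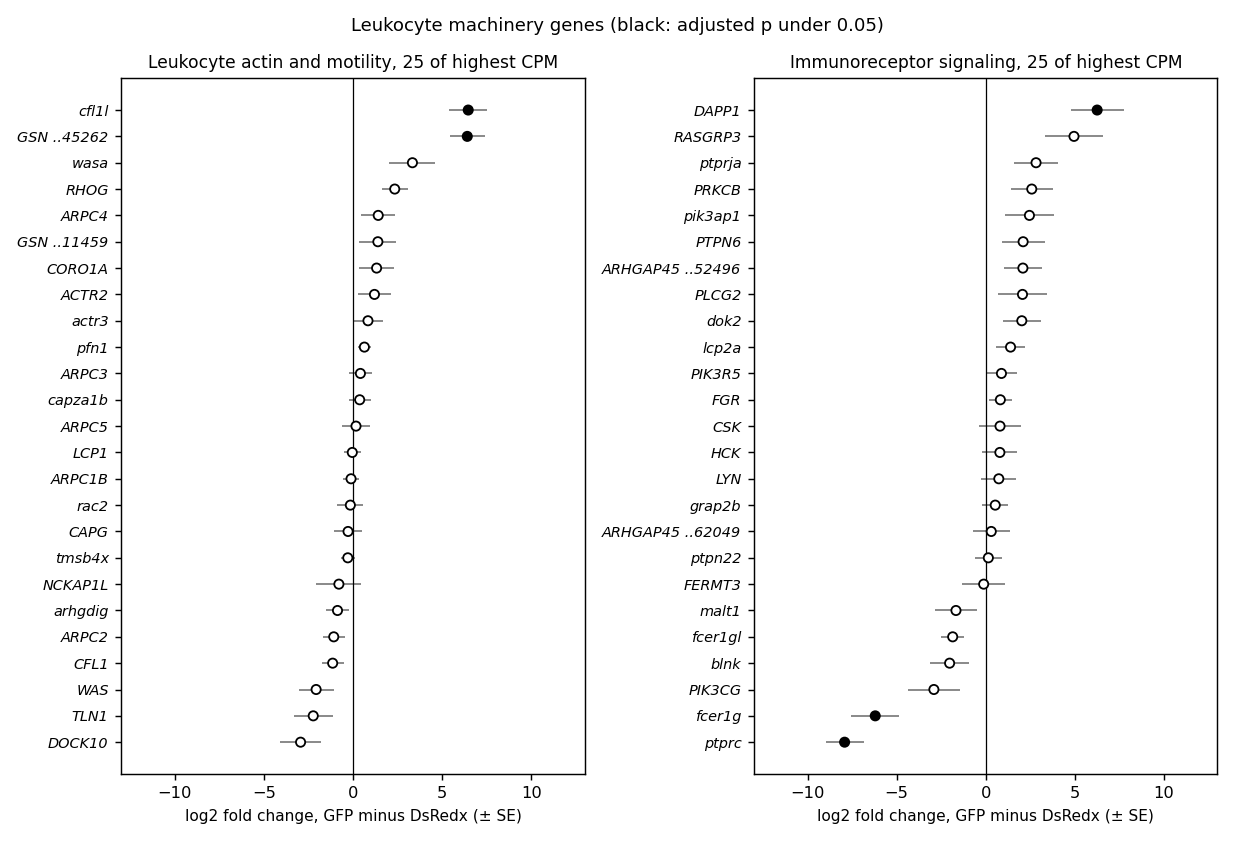
Log2 fold change, GFP minus DsRedx, with its standard error (x axis) for the 25 genes of highest CPM in the leukocyte motility list (left) and the immunoreceptor signaling list (right); black points have an adjusted p under 0.05. Most genes shown were not called, LCP1 at -0.04 among them, and ptprc lies at -7.92. Over all tested members, the median was -0.111 in the motility list and 0.794 in the immunoreceptor list.

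Phagocytosis and engulfment genes were called only as falls. Of 29 tested, 8 fell and 0 rose (27.6% called, against 3.81% of all genes), 27 had negative log2 fold changes with a median of -2.44, and DESeq2 called 14 lower. The complement genes c1qc and c1qb, whose proteins tag dying cells, stood at 0.341, 1.2 and 1.4 and at 0.91, 1.95 and 4.07 CPM in GFP 1 to 3. In DsRedx 1 to 3 they stood at 217, 409 and 328 CPM for c1qc and at 17.7, 1316 and 734 CPM for c1qb. DsRedx 1 was lowest for both, and every DsRedx value lay above every GFP value. The falls were log2 fold change -8.32 with SE 1.3 and adjusted p = 0.00276 for c1qc, with the call kept in all 6 fits, and log2 fold change -8.21 with SE 1.47 and adjusted p = 0.00683 for c1qb, with the call lost without GFP 1 or GFP 2 at adjusted p 0.0622 to 0.0779. The scavenger receptor gene marco fell (log2 fold change -7.68 with SE 1.38 and adjusted p = 0.00718; call lost without GFP 1 or GFP 2 at adjusted p 0.0662 to 0.074). MFGE8, which bridges dying cells to phagocytes, stood at 2.5, 2.7 and 24.8 CPM against 238, 578 and 1149 CPM, with GFP 3 the highest of its group. It fell (log2 fold change -6.03 with SE 1.2 and adjusted p = 0.0132; call lost without GFP 1, GFP 2 or DsRedx 3 at adjusted p 0.062 to 0.0953, and with 2% removed at 0.149). The galectin-binding gene lgals3bp.1 and the phosphatidylserine receptor gene havcr1 fell by log2 fold change -7.86 with SE 1.19 and adjusted p = 0.00219 and log2 fold change -7.13 with SE 1.8 and adjusted p = 0.0426. The call of lgals3bp.1 was kept in all 6 fits, and that of havcr1 was lost without any GFP library, DsRedx 2 or DsRedx 3 at adjusted p 0.0794 to 0.177, and with 2% removed at 0.111. ABCA1 and MPEG1 (ENSDARG00000043093) made up the 8, the second with log2 fold change -7.95 with SE 2.02 and adjusted p = 0.0446 and a call lost without any GFP library, DsRedx 2 or DsRedx 3 at adjusted p 0.0609 to 0.177, and with 2% removed at 0.1. That MPEG1 gene held 1, 2 and 7 counts in GFP 1 to 3 and passed the filter through DsRedx libraries alone, which set its sign beforehand. The shared direction of this list is therefore not evidence in itself.

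Single genes of lipid, sterol and heme handling fell, while most of those lists was not called. FABP7 (ENSDARG00000034650), a fatty acid binding protein, stood at 2.27, 2.55 and 4.07 CPM in GFP and 268, 1708 and 452 CPM in DsRedx libraries. DsRedx 2 was highest and all DsRedx libraries lay above GFP (log2 fold change -8.09 with SE 1.07 and adjusted p = 0.00111), and the call was kept in all 6 fits. The cholesterol exporter gene ABCA1 stood at 1.14, 0.3 and 1.54 CPM against 81.8, 586 and 107 CPM and fell (log2 fold change -7.99 with SE 1.55 and adjusted p = 0.0112), with the call lost without any GFP library or DsRedx 2 at adjusted p 0.0573 to 0.0942. NPC2 (ENSDARG00000096979), a lysosomal sterol carrier, fell (log2 fold change -7.21 with SE 1.82 and adjusted p = 0.0426; call lost without any GFP library, DsRedx 2 or DsRedx 3 at adjusted p 0.062 to 0.181, and with 2% removed at 0.113), which made 3 falls and 0 rises of 30 tested lipid genes (10%, against 3.81% of all genes). OSBP2, an oxysterol-binding protein outside that list, fell (log2 fold change -8.13 with SE 1.49 and adjusted p = 0.00782; call lost without GFP 1 or GFP 2 at adjusted p 0.0676 to 0.0776). HMOX1, the heme oxygenase, stood at 14, 12.7 and 16.3 CPM against 691, 4902 and 3444 CPM. It fell (log2 fold change -7.71 with SE 0.84 and adjusted p = 0.000512; call kept in all 6 fits) and was the 1 gene called of 16 tested in heme and iron handling (6.25%, against 3.81% of all genes). The ferritin gene fth1a, picked after its values were seen, stood at 3131, 7103 and 5985 CPM in GFP and 2425, 8438 and 4939 CPM in DsRedx libraries. These overlapped (log2 fold change 0.04, adjusted p = 0.985).

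Genes of the chemokine, cytokine and receptor list were called only as falls by edgeR. The receptor genes tnfrsf11a, ifnlr1 and il17rel, which rose, are not members of that list, so its single direction depends on its membership. Of 48 tested, 6 fell and 0 rose (12.5% called, against 3.81% of all genes), and DESeq2 called 15 lower and 3 higher. The TNF receptor family gene tnfrsf18 stood at 21.5, 11.7 and 15.6 CPM in GFP 1 to 3 and 2302, 2351 and 4408 CPM in DsRedx 1 to 3. Its groups were far apart and tight (log2 fold change -7.54 with SE 0.68 and adjusted p = 0.000171), and the call was kept in all 6 fits. The chemokine gene cxcl19 stood at 4.55, 3.15 and 5.33 CPM against 789, 1011 and 1477 CPM (log2 fold change -7.97 with SE 0.83 and adjusted p = 0.000429; call kept in all 6 fits). The chemokine gene cxcl8a, whose product attracts neutrophils, stood at 7.17, 1.95 and 3.51 CPM against 88.4, 765 and 1054 CPM (log2 fold change -7.23 with SE 1.18 and adjusted p = 0.00394; call kept in all 6 fits but lost with 2% removed at 0.0631). The chemerin receptor gene CMKLR1 (ENSDARG00000090890) fell likewise (log2 fold change -7.8 with SE 1.14 and adjusted p = 0.00184; call kept in all 6 fits). The other falls were partial: tnfa, encoding tumor necrosis factor, at 17.4, 8.84 and 149.9 CPM against 2696, 2226 and 506 CPM (log2 fold change -4.95 with SE 1.08 and adjusted p = 0.0217; call lost without GFP 1, GFP 2 or DsRedx 1 at adjusted p 0.0678 to 0.113, and with 2% removed at 0.184), and ccl35.1 (log2 fold change -2.26 with SE 0.43 and adjusted p = 0.00996; call lost without GFP 1 or DsRedx 3 at adjusted p 0.0513 to 0.0721, and with 2% removed at 0.0501).

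Several other immune ligand and receptor genes did not pass the test and had overlapping groups. The chemokine receptor genes CXCR4 (ENSDARG00000041959) and CCR9 (ENSDARG00000055186) and the interleukin 12 subunit gene il12bb, all picked after their values were seen, had log2 fold changes of 0.8, 0.07 and 0.16 (adjusted p = 0.515, 0.969 and 0.934). CCR9 stood at 3322, 6930 and 3680 CPM in GFP and 2375, 5898 and 5030 CPM in DsRedx libraries. The prostaglandin synthase gene PTGS2 (ENSDARG00000010276), picked likewise, did not overlap, was higher in every GFP library (921, 755 and 2429 against 162, 12.3 and 279 CPM) and missed the threshold (log2 fold change 3.18 with SE 0.94 and adjusted p = 0.076).

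Further single genes of differing function fell. ACOD1, which makes itaconate in activated macrophages, stood at 2.62, 1.35 and 3.37 CPM in GFP and 657, 498 and 726 CPM in DsRedx libraries. It fell with little spread among DsRedx libraries (log2 fold change -7.99 with SE 0.98 and adjusted p = 0.000916), and the call was kept in all 6 fits. FGL2, a fibrinogen-like immune protein, fell (log2 fold change -8.01 with SE 1.31 and adjusted p = 0.00384; call kept in all 6 fits). CNDP2, a cytosolic dipeptidase, stood at 1.59, 1.95 and 2.25 CPM against 134, 1069 and 288 CPM (log2 fold change -8.0 with SE 1.21 and adjusted p = 0.00219; call kept in all 6 fits). The cystine importer gene slc7a11 fell (log2 fold change -8.18 with SE 1.77 and adjusted p = 0.0213; call lost without any GFP library or DsRedx 3 at adjusted p 0.105 to 0.132, and with 2% removed at 0.0609), and so did AQP1 (ENSDARG00000023713), a water channel (log2 fold change -7.94 with SE 1.68 and adjusted p = 0.0185; call lost without any GFP library or DsRedx 2 at adjusted p 0.0907 to 0.126, and with 2% removed at 0.0551). The genes c1ql1 and olmf4l1 also fell (log2 fold change -8.09 with SE 1.21 and adjusted p = 0.00215 and log2 fold change -8.08 with SE 1.12 and adjusted p = 0.00157), both calls being kept in all 6 fits.

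The interferon, inflammasome and survival lists held 1 or 2 calls each. Of 19 tested interferon response genes, 2 fell (10.5%, against 3.81% of all genes): mxf at 2.5, 1.95 and 4.21 CPM against 906, 362 and 664 CPM (log2 fold change -7.79 with SE 0.99 and adjusted p = 0.000916; call kept in all 6 fits) and mxc (log2 fold change -4.44 with SE 1.07 and adjusted p = 0.0353; call lost without any GFP library, DsRedx 1 or DsRedx 3 at adjusted p 0.062 to 0.164, and with 2% removed at 0.212). Of 33 tested innate sensing genes, 1 fell, the NF-kappaB inhibitor gene nfkbiaa (log2 fold change -2.45 with SE 0.53 and adjusted p = 0.0194; call lost without GFP 1, GFP 3 or DsRedx 3 at adjusted p 0.0554 to 0.124, and with 2% removed at 0.0763), a share of 3.03%, near that of all genes. Of 29 tested apoptosis and survival genes, 2 fell (6.9%). The survival gene bcl2l10 stood at 159, 192 and 224 CPM against 5373, 2325 and 3666 CPM (log2 fold change -4.3 with SE 0.55 and adjusted p = 0.000916; call kept in all 6 fits). The death gene pmaip1 fell partly (log2 fold change -2.17 with SE 0.56 and adjusted p = 0.0451; call lost without GFP 1, GFP 2, DsRedx 1 or DsRedx 3 at adjusted p 0.104 to 0.175, and with 2% removed at 0.132). Of 48 tested immediate early, AP-1 and heat shock genes, 3 fell (NR4A3, ppp1r15a and FOSB), a share of 6.25% against 3.81% of all genes. FOSB, which responds to stimulation and to cell handling, stood at 122, 45.5 and 15.3 CPM against 1232, 954 and 827 CPM (log2 fold change -4.04 with SE 0.84 and adjusted p = 0.017; call lost without GFP 2 or GFP 3 at adjusted p 0.0643 to 0.123, and with 2% removed at 0.0998).

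Degradation and antigen presentation genes were largely not called. Of 71 tested lysosomal genes, 2 fell and 0 rose (2.82% called, against 3.81% of all genes). The median log2 fold change was -1.06, and 16 were called lower and 2 higher by DESeq2. CTSZ, a cathepsin, stood at 34.2, 90.2 and 74.2 CPM against 149.8, 1069 and 999 CPM (log2 fold change -3.48 with SE 0.88 and adjusted p = 0.0431; call lost without any GFP library, DsRedx 2 or DsRedx 3 at adjusted p 0.0754 to 0.181, and with 2% removed at 0.122), and the other fall was NPC2, given above. The protease gene LGMN, picked after its values were seen, had a log2 fold change of -0.65 (adjusted p = 0.595). Of 33 tested antigen presentation genes, 2 fell (6.06%, against 3.81% of all genes): cd74a, the invariant chain of MHC class II, at 8012, 10990 and 13490 CPM against 25280, 28870 and 32390 CPM (log2 fold change -1.41 with SE 0.32 and adjusted p = 0.0269; call lost without GFP 1, GFP 2, DsRedx 2 or DsRedx 3 at adjusted p 0.0743 to 0.149, and with 2% removed at 0.102), and mhc2dab (log2 fold change -2.06 with SE 0.48 and adjusted p = 0.028; call lost without GFP 1, GFP 2, DsRedx 2 or DsRedx 3 at adjusted p 0.061 to 0.154, and with 2% removed at 0.0979). The class II genes mhc2dca and mhc2d8.45b1, picked after their values were seen, rose instead, with log2 fold changes of 6.6 and 6.52 (adjusted p = 0.0353 and 0.0326; calls lost without any GFP library, DsRedx 1 or DsRedx 3 at adjusted p 0.06 to 0.169 and lost without any GFP library, DsRedx 1 or DsRedx 3 at adjusted p 0.0641 to 0.248). Class II genes have close copies, and how shared reads were counted is not given, so these levels are uncertain.

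Metabolic and growth programs held few or no calls. Of 78 tested nuclear genes of oxidative phosphorylation, edgeR called 0, with 2 at an unadjusted p under 0.05 and 4 called lower by DESeq2. Of 80 tested ribosomal protein genes, edgeR called 0, with 15 at an unadjusted p under 0.05 and 4 lower by DESeq2, though all 80 log2 fold changes were negative with a median of -1.3 (-1.8 under RLE, -1.11 under upper-quartile scaling). The 13 mitochondrial genome transcripts gave 0 calls by edgeR, 0 at an unadjusted p under 0.05 and 0 by DESeq2. Of 19 tested cell cycle genes, edgeR called 0, with 3 at an unadjusted p under 0.05 and 2 higher and 1 lower by DESeq2. Of 27 tested genes of glycolysis and the pentose phosphate pathway, 1 fell (3.7%, against 3.81% of all genes). It was the lysosomal hexose transporter gene SLC2A6, at 1.14, 4.34 and 2.25 CPM against 348, 325 and 266 CPM (log2 fold change -6.92 with SE 1.21 and adjusted p = 0.00601; call lost without GFP 1 at adjusted p 0.0573, and with 2% removed at 0.0748). ACLY, which makes cytosolic acetyl-CoA for lipid synthesis, rose (log2 fold change 7.72 with SE 1.75 and adjusted p = 0.0258; call lost without any GFP library or DsRedx 3 at adjusted p 0.0677 to 0.195). CYP1A1, a target of the aryl hydrocarbon receptor, stood at 396, 155 and 146 CPM against 2.19, 0.711 and 0.691 CPM. It rose (log2 fold change 7.59 with SE 1.46 and adjusted p = 0.0105; call lost without GFP 1 or GFP 2 at adjusted p 0.0617 to 0.148) and was the 1 gene called of 28 tested in xenobiotic and retinoid metabolism (3.57%, against 3.81% of all genes).

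The gill difference was then set beside the intestine, where the same 2 colors were sorted, also as 3 libraries each. In the fit of all 12 libraries, 58 of the 122 gill rises (47.5%) were also called higher in intestine, which is 37.2% of the 156 intestine rises among the same genes (2.53% of those tested). Of the 113 gill falls, 73 (64.6%) were called lower in intestine, which is 36.7% of the 199 intestine falls (3.23%). No gill call was called the opposite way in intestine. A test of the difference between the 2 reporter effects, over 10756 genes, called 11 (0.102%), with 1518 at an unadjusted p under 0.05, 9 under RLE scaling and 826 by DESeq2. Without GFP 1, GFP 2, GFP 3 or DsRedx 2 the count was 0, 2, 1 and 5. The programs above are therefore not called particular to the gill. The test could not decide this for PAX1, PAX9, pou2f3, il17rel, mhc2dca and mhc2d8.45b1, which stood at 0 CPM in every intestine library. Nor could it for OXGR1, GATA3, eya2 and ushbp1, whose intestine means were at most 0.148 CPM in either color. For these genes the intestine fold change rests on few or no counts.

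**Figure D5:**
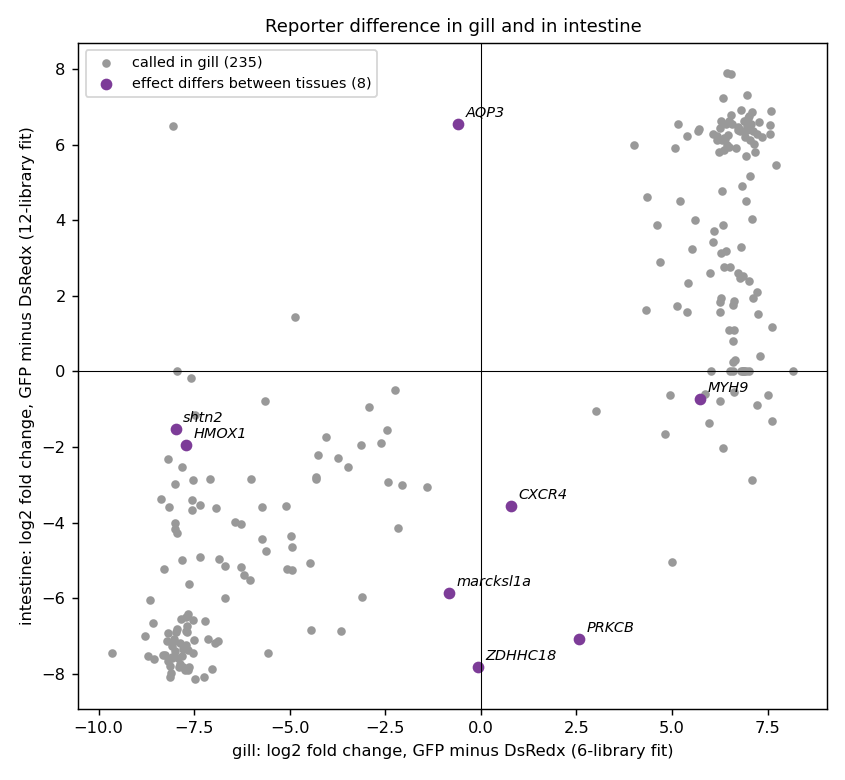
Log2 fold change, GFP minus DsRedx, in gill (x axis, 6-library fit) and intestine (y axis, 12-library fit) for the 235 genes called in gill (grey) and for 8 named genes whose reporter effect differed between tissues (purple). Most grey points lie in the lower left or upper right quadrant, and PRKCB and CXCR4 lie right of 0 in gill and below 0 in intestine.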

How the data were processed

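RNA of 12 zebrafish cell samples was sequenced, and the 6 gill libraries were compared (3 GFP, 3 DsRedx). The authors deposited whole-number read counts per Ensembl gene for 32520 genes, and, as deposited by the authors, the same genes in TPM (length-scaled values). Per the submitters' processing notes STAR, featureCounts and the danRer11 build were used, with versions, annotation, strand setting and treatment of reads shared by copies not given in the sources used here. Symbols came from the supplied gene name table, which named 29201 identifiers, and 6136 identifiers share a symbol. Genes with 10 or more counts in 3 or more gill libraries were tested with edgeR 4.0.16 (TMM, quasi-likelihood F test, 1 mean per color, 4 residual degrees of freedom) in R 4.3.3, with Benjamini-Hochberg adjustment. DESeq2 1.42.0 and limma 3.58.1 (on log2 TPM) served as alternatives, and edgeR on all 12 libraries tested the gill minus intestine difference.

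The 40 gene lists (2115 of 2268 names found) and the comparison were chosen with earlier results of these data known. Named genes were, among non-overlapping calls with at least 50 CPM in the higher group, the 15 largest rises and 15 largest falls outside the identity and adhesion lists, up to 4 called members per list (the 2 most abundant of lists without a call), and fixed genes, and others are marked in the text. Some genes of the rule are not described. A few list members are not reported here, by name or in figures, but stay in the tests and counts. Depth, 5895669 to 8502294 counts per library, limits low genes. The number of sorted cells, 30 to 50, limits sampling too. No sequences are shown because promoter and protein tables were not used here, and the planned promoter motif count was not run.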

Additional observations from a re-analysis of the deposited data

Results flagged for a closer look

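For 8 named genes the GFP-minus-DsRedx effect differed between gill and intestine by the edgeR test of the difference itself (12 libraries, adjusted p under 0.05 over 10756 genes). Values are log2 effects, gill minus intestine, and CPM levels, scaled over all 12 libraries, are the lowest and highest of 3 libraries. The difference was -6.5 for shtn2, a gene of the shootin family, at 1.03 to 1.63 CPM in gill GFP and 219.7 to 434 CPM in gill DsRedx libraries, against 73.9 to 199 and 274 to 539 CPM in intestine. It was -5.77 for HMOX1, the heme oxygenase, at 12.2 to 18.9 CPM in gill GFP and 741 to 4969 CPM in gill DsRedx libraries, against 43.5 to 247 and 246 to 919.7 CPM in intestine. Both fell further in gill. It was 9.56 for PRKCB (ENSDARG00000022254), a protein kinase C gene, at 124 to 332 CPM in gill GFP and 4.89 to 64.2 CPM in gill DsRedx libraries, against 0.55 to 0.978 and 28.7 to 184 CPM in intestine. It was 4.32 for CXCR4 (ENSDARG00000041959), a chemokine receptor gene, at 3664 to 9368 CPM in gill GFP and 1110 to 5583 CPM in gill DsRedx libraries, against 277 to 772 and 3569 to 7839 CPM in intestine. These genes were low in intestine GFP cells and not in gill GFP cells. For MYH9 (ENSDARG00000063295), a nonmuscle myosin gene, it was 6.4, at 412 to 644 CPM in gill GFP and 6.62 to 19.4 CPM in gill DsRedx libraries, against 221 to 381 and 95.4 to 859 CPM in intestine. For AQP3 (ENSDARG00000003808), a water and glycerol channel gene, it was -7.12, at 151 to 475 CPM in gill GFP and 83.2 to 766 CPM in gill DsRedx libraries, against 45.7 to 94.7 and 0.494 to 1.29 CPM in intestine. For marcksl1a, an actin regulator gene, it was 5.02, at 299 to 732 CPM in gill GFP and 580.3 to 986 CPM in gill DsRedx libraries, against 4.88 to 19.4 and 478 to 1073 CPM in intestine. For ZDHHC18 (ENSDARG00000105034), a palmitoyltransferase gene, it was 7.82, at 14.4 to 453 CPM in gill GFP and 153 to 236 CPM in gill DsRedx libraries, against 0.8 to 1.05 and 108 to 324 CPM in intestine, where the gill GFP libraries spread widely.

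These calls were not kept in every fit. Of the 6 fits that each left out 1 gill library, shtn2 was called in 3, PRKCB, HMOX1, CXCR4 and AQP3 in 2, MYH9 in 1 and marcksl1a and ZDHHC18 in 0. Without GFP 1, the count over all genes by edgeR was 0.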

How the results depend on the processing

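No call of the 235 reversed direction in any alternative fit. For all calls, higher and lower, the counts were 584, 333 and 251 with all 12 libraries in the fit, 1193, 655 and 538 by DESeq2, 404, 294 and 110 by limma on log2(TPM + 1), 577, 441 and 136 with a pseudocount of 0.1, and 391, 282 and 109 with a filter of 1 TPM. They were 121, 80 and 41 with 2% of the gill mean removed and 134, 96 and 38 with 3% removed. RLE scaling gave 230, 78 and 152. Leaving out 1 library gave 62 to 251 calls, 24 to 141 higher and 38 to 122 lower, and for the gill minus intestine difference 0 to 16, where DESeq2 gave 826 and RLE 9. Upper-quartile scaling, other count filters and a fold over 2 kept the total within 1.5 times. The numbered replicates were not shown to be pairs (correlations of deviations 0.0328, 0.00567 and 0.00626); a replicate block gave 246 calls, 117 higher and 129 lower, and 26 for the tissue difference. Of 108 named calls, 66, 65, 49, 16, 14 and 41 were lost without GFP 1, GFP 2, GFP 3, DsRedx 1, DsRedx 2 and DsRedx 3. The cause of these changes was not tested. With 4 residual degrees of freedom and a biological coefficient of variation of 1.32, partial changes are hard to call at this depth.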

Other observations

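Some of the largest changes belonged to genes outside the programs. Of those below, sema4ab passed the filter on counts through DsRedx libraries alone, and tmem154 and ushbp1 through GFP libraries alone. This set their signs beforehand. Among falls, the semaphorin gene sema4ab, a guidance and immune signaling ligand, stood at 0.228, 0.599 and 0.702 CPM in GFP 1 to 3 and 11.3, 143 and 326 CPM in DsRedx 1 to 3 (log2 fold change -8.25 with SE 1.9 and adjusted p = 0.0276), its call lost without any GFP library or DsRedx 3 at adjusted p 0.119 to 0.153, and with 2% removed at 0.0728. MDFIC, encoding a regulator of transcription factors, stood at 0.569, 0.749 and 1.68 CPM against 173, 685 and 1.8 CPM, with DsRedx 3 near the GFP level (log2 fold change -8.14 with SE 1.88 and adjusted p = 0.0276), and the call was lost without any GFP library or DsRedx 2 at adjusted p 0.12 to 0.162, and the gene left the test with 2% removed. The saposin-type gene sftpbb and the tubulin polymerization gene tppp, picked after their values were seen, fell (log2 fold change -4.98 with SE 0.79 and adjusted p = 0.00305 and log2 fold change -7.72 with SE 0.97 and adjusted p = 0.000916), and both calls were kept in all 6 fits. Among rises, tmem154 stood at 381, 112 and 83.8 CPM against 1.46, 1.24 and 1.11 CPM (log2 fold change 7.22 with SE 1.54 and adjusted p = 0.0185; call lost without any GFP library or DsRedx 3 at adjusted p 0.0518 to 0.202), and ushbp1 at 95.9, 47 and 395 CPM against 1.46, 0.888 and 0.553 CPM (log2 fold change 7.51 with SE 1.67 and adjusted p = 0.0237; call lost without any GFP library or DsRedx 3 at adjusted p 0.0671 to 0.203).

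Of 19 tested cell cycle genes, 15 had negative log2 fold changes (median -1.78) and edgeR called 0. A pair of members picked after their values were seen lay the other way, also without passing the test. Both held under 10 counts in every DsRedx library and passed the filter through GFP libraries alone. Their sign was thus set beforehand. The inhibitor cdkn1a stood at 29.5, 31.6 and 77.9 CPM against 0.182, 0.355 and 0.138 CPM (log2 fold change 7.58 with SE 2.35 and adjusted p = 0.0855), and the cyclin CCND1 at 33.5, 78.8 and 191 CPM against 0.547, 1.6 and 0.553 CPM (log2 fold change 6.79 with SE 1.93 and adjusted p = 0.0675). The GTPase gene RHOG (ENSDARG00000068653), picked after its values were seen, had 455 counts in GFP and 2 in DsRedx libraries, a ratio of pooled rates of 185 with a 95% counting interval of 50.9 to 1530, which covers counting error only. GFP 1 to 3 held 184, 259 and 12 of these counts, and it did not pass the test (adjusted p = 0.119). A more abundant gene of that symbol, RHOG (ENSDARG00000004301), stood at means of 741 CPM in GFP and 146 CPM in DsRedx libraries. It did not pass either (log2 fold change 2.34 with SE 0.73 and adjusted p = 0.0872).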
